A study of Mus musculus with 7 samples.

Results

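A set of 8 genes used to recognise classical monocytes was followed through the marrow-derived myeloid cells of mouse epidermis: Ly6c2, Plac8, Lyz1, Lyz2, Srgn, Chil3, Fn1 and Vcan. They were chosen as monocyte genes on their measured levels in these cells' clusters and along latent time, so their differences between clusters and along latent time are given as a description, with no test. All 8 of 8 were among the 15155 genes listed for donor cells and among the genes listed for keratinocytes, and 5 of the 8 were listed for host cells (Ly6c2, Lyz2, Srgn, Fn1 and Vcan). All 8 also passed the filter on low levels, a mean of at least 0.1 UMIs per 10000, together with 7267 genes in all.

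The hosts were male C57BL/6 mice (CD45.2) that received lethal irradiation and then marrow from female C57BL/6 mice (CD45.1), and epidermis was taken 3 weeks later and pooled from several animals. Donor CD11b+MHCII+ cells were sorted into 4 single-cell libraries, 3 labelled as bone marrow transplant alone (BMT) and 1 labelled as BMT plus T cells (BMT + T cells). Host CD11b+MHCII+ cells gave 1 library labelled BMT, and CD45- keratinocytes gave 1 library under each label. The design text of the series states that the marrow was given with CD4 T cells and with Matahari CD8 T cells, which carry a transgenic receptor for a male antigen, without separating the labels, so every comparison below is between labels and not between known treatments. The short names of the donor libraries fall into pairs, BMT replicates 1 and 2 in one form and BMT replicate 3 with the BMT + T cells library in another. The study describes 2 separate sorting and sequencing experiments, of which the later one took keratinocytes from the same epidermis, and the keratinocyte library names have the second form. No label or method assigns each library to an experiment, so the pair is called here by its names. The labels do not say that the libraries came from separate animals, so p-values measure only the spread between these libraries. The gate took cells that already had MHC class II on their surface, so monocytes that had not yet gained it were outside the sort.

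Classical monocytes leave the bone marrow, circulate briefly and enter tissues, where they can become macrophages or dendritic cells, and in the skin they can refill the niche of Langerhans cells after host cells are destroyed. Ly6c2 encodes a surface protein of the Ly6 family that marks the classical subset in the mouse. Plac8 encodes a small cysteine-rich protein of blood monocytes and granulocytes, Lyz1 and Lyz2 encode the lysozymes that cleave bacterial cell walls, and Srgn encodes serglycin, the proteoglycan core of secretory granules. Chil3 encodes the chitinase-like protein Ym1, and Fn1 and Vcan encode fibronectin and versican, which are secreted into the extracellular matrix.

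The depth differed between libraries. The 11899 donor cells fell into libraries of 226 to 8382 cells with 2982296 to 64343817 UMIs (unique molecular identifiers, each standing for 1 captured transcript), at a median of 7021.5 to 13387 UMIs per cell. Levels are given as CP10K, the UMIs of a gene per 10000 UMIs of the cell, averaged over the cells of a library and cluster with at least 20 cells. Of 35 such units 27 had enough cells, and S100a+ monocytes had them in BMT replicate 2 alone. Donor libraries shared 8 cell barcodes over all pairs. The clusters are the authors' annotation: monocytes (Mono), interferon-stimulated (ISG) monocytes, Hmox1+ monocytes, S100a+ monocytes, Mrc1+ macrophages, MC (monocyte-derived cells), and migrating, cycling and resident mLC (monocyte-derived Langerhans cells). The Mono cluster had Ccr2, the chemokine receptor of classical monocytes, at 0.984 to 2.39 CP10K, and Cd207, which encodes the Langerhans cell protein langerin, at 0.00571 to 0.0677 CP10K. Not every marker set Mono apart. Cdh1, also a Langerhans cell marker, stood at 0.142 to 2.84 CP10K there. Mrc1 stood at 5.64 ± 2.89 CP10K in Mono and at 5.65 ± 3.63 CP10K in Mrc1+ macrophages (n = 4 each). The summed classical monocyte markers were higher in Hmox1+ monocytes than in Mono in all 3 libraries with both, at 172.6 against 144.0, 182.5 against 154.0 and 166.8 against 110.4 CP10K.

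Lyz1 and Lyz2 lie side by side on chromosome 10, 5.522 kb apart (Lyz2 at chr10:117277541-117282272 and Lyz1 at chr10:117287795-117292868, GRCm38.p6, RefSeq, both on the minus strand), and their sequences are shown because the pair behaved differently in the Mono cluster. The 250 bases before each gene's start in the RefSeq promoter table are printed 5′ to 3′ with the bases that differ between the aligned sequences in capitals. Of 252 aligned columns 52 differed (79.4% identity), and the last 50 bases before the start were identical.
Lyz1, chr10:117292869-117293118, minus strand: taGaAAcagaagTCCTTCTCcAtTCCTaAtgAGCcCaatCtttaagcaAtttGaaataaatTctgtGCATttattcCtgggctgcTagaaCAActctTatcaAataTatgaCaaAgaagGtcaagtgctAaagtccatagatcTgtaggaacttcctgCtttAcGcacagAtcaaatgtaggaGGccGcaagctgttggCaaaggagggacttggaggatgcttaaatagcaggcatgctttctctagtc
Lyz2, chr10:117282273-117282522, minus strand: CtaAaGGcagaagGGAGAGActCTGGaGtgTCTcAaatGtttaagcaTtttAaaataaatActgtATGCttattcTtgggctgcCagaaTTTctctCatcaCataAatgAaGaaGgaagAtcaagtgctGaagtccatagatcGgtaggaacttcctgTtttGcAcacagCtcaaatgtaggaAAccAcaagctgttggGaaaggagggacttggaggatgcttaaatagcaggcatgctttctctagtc

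The first 120 coding bases follow, from GENCODE transcripts, again with differing bases in capitals. These are the coding bases closest to the 5′ end of the transcript, where a 5′ library reads, and 11 of the 120 differed. The untranslated bases before them lie closer still and are not shown.
Lyz1: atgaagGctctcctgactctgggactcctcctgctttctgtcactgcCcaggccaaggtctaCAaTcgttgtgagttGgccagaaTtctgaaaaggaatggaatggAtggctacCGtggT
Lyz2: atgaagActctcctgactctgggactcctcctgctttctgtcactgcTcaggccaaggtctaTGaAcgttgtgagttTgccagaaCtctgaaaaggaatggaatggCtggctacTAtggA
Over the 444 coding bases the pair had 95.0% identity, and 34.2% of the 31-base words of the Lyz1 transcript also occurred in the Lyz2 transcript (15.0% of its first 200 words). Words shared in this way cannot place a read on one gene, so a share of the counts of each gene is uncertain. Ly6c2 has a closer relative still: its coding sequence was 97.7% identical to that of Ly6c1, and 48.9% of its words were shared, but Ly6c1 was counted at a mean of only 0.0111 CP10K in Mono. Chil3 shared 31.1% of its words with Chil4, which was not listed for donor cells.

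The promoters of Ly6c2 and Plac8 are shown because the levels of this pair correlated best of any 2 members over the library and cluster units (Pearson coefficient 0.928, a description). Matches to GAGGAA, a core motif of the myeloid factor PU.1 (either strand), are in capitals. Each window ends at the start given in the promoter table, and part of it lies inside the RefSeq gene span. These spans are chr15:75108161-75112066 for Ly6c2 and chr5:100551589-100572253 for Plac8.
Ly6c2, chr15:75111972-75112221, GRCm38.p6, minus strand: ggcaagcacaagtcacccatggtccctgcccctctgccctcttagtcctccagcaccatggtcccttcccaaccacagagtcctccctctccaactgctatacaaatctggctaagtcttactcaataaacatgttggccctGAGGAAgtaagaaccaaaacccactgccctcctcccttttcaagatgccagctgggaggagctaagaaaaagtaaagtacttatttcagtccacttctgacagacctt
Plac8, chr5:100572206-100572455, GRCm38.p6, minus strand: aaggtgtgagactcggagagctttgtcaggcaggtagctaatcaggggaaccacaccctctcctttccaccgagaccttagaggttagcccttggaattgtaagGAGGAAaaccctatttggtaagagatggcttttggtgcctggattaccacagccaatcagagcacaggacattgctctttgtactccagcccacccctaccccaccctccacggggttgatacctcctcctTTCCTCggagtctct
GAGGAA was present in 2 of the 7 member promoters in the RefSeq table, these 2, and in 23.1% of all 27025 promoters of this length. TTGCNNAA, a C/EBP motif, was present in 1 of the 7 (Lyz1) and in 9.55% of all promoters. GAAANNGAA, an interferon regulatory factor motif, was present in 2 of the 7 (Lyz1 and Chil3) and in 7.16% of all. Both strands were searched and no motif overlapped another in the member promoters.

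Mono was the cluster with the highest level for Ly6c2, Plac8, Lyz1 and Lyz2 in each of the 4 libraries, and for the other 4 genes in only some libraries or none. Over all genes and libraries Mono was highest in 20 of 32 cases. Ly6c2 stood at 12.8, 14.2 and 8.69 CP10K in Mono of BMT replicates 1 to 3 and at 4.07 CP10K in the BMT + T cells library. Plac8 followed the same order, at 19.8, 24.3, 13.8 and 5.38 CP10K. BMT replicates 1 and 2 were thus the highest libraries for both genes and the BMT + T cells library the lowest. Lyz1 ran the other way, at 1.19, 1.78, 5.87 and 18.7 CP10K, and was found in 11.4%, 11.5%, 41.5% and 60.3% of Mono cells (exact 95% intervals of 7.70 to 16.0%, 8.96 to 14.5%, 30.7 to 52.9% and 47.2 to 72.4%, counting error only). At 2000 UMIs per cell the shares with Lyz1 were 6.25%, 7.97%, 21.5% and 49.1%. Lyz2, in contrast, was found in 93.6 to 100% of Mono cells, at 120.2, 48.4, 115.3 and 174.4 CP10K.

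Srgn stood at 33.4, 34.8 and 25.1 CP10K in Mono of BMT replicates 1 to 3 and at 8.71 CP10K in the BMT + T cells library. Chil3 stood at 15.8, 11.2, 2.70 and 0.975 CP10K. For both genes the BMT + T cells library was again the lowest, and for Chil3 BMT replicate 3 stood nearer to it than to the other BMT libraries. Fn1 stood at 1.10, 3.32, 2.76 and 4.15 CP10K and Vcan at 1.55, 1.93, 0.321 and 0.890 CP10K. The BMT + T cells library was the highest for Fn1 and lay within the BMT libraries for Vcan. Mono comprised 246, 547, 82 and 63 cells in these libraries, at median depths of 10821, 5382, 10802 and 11693 UMIs and median latent times of 0.207, 0.244, 0.307 and 0.313. The summed macrophage markers in Mono were 33.4, 65.3, 125.1 and 117.4 CP10K, so that BMT replicates 1 and 2 stood below the other libraries. Depth, latent time and these markers thus differed between the libraries together with the levels, and their part in the differences was not tested.

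**Figure D1:**
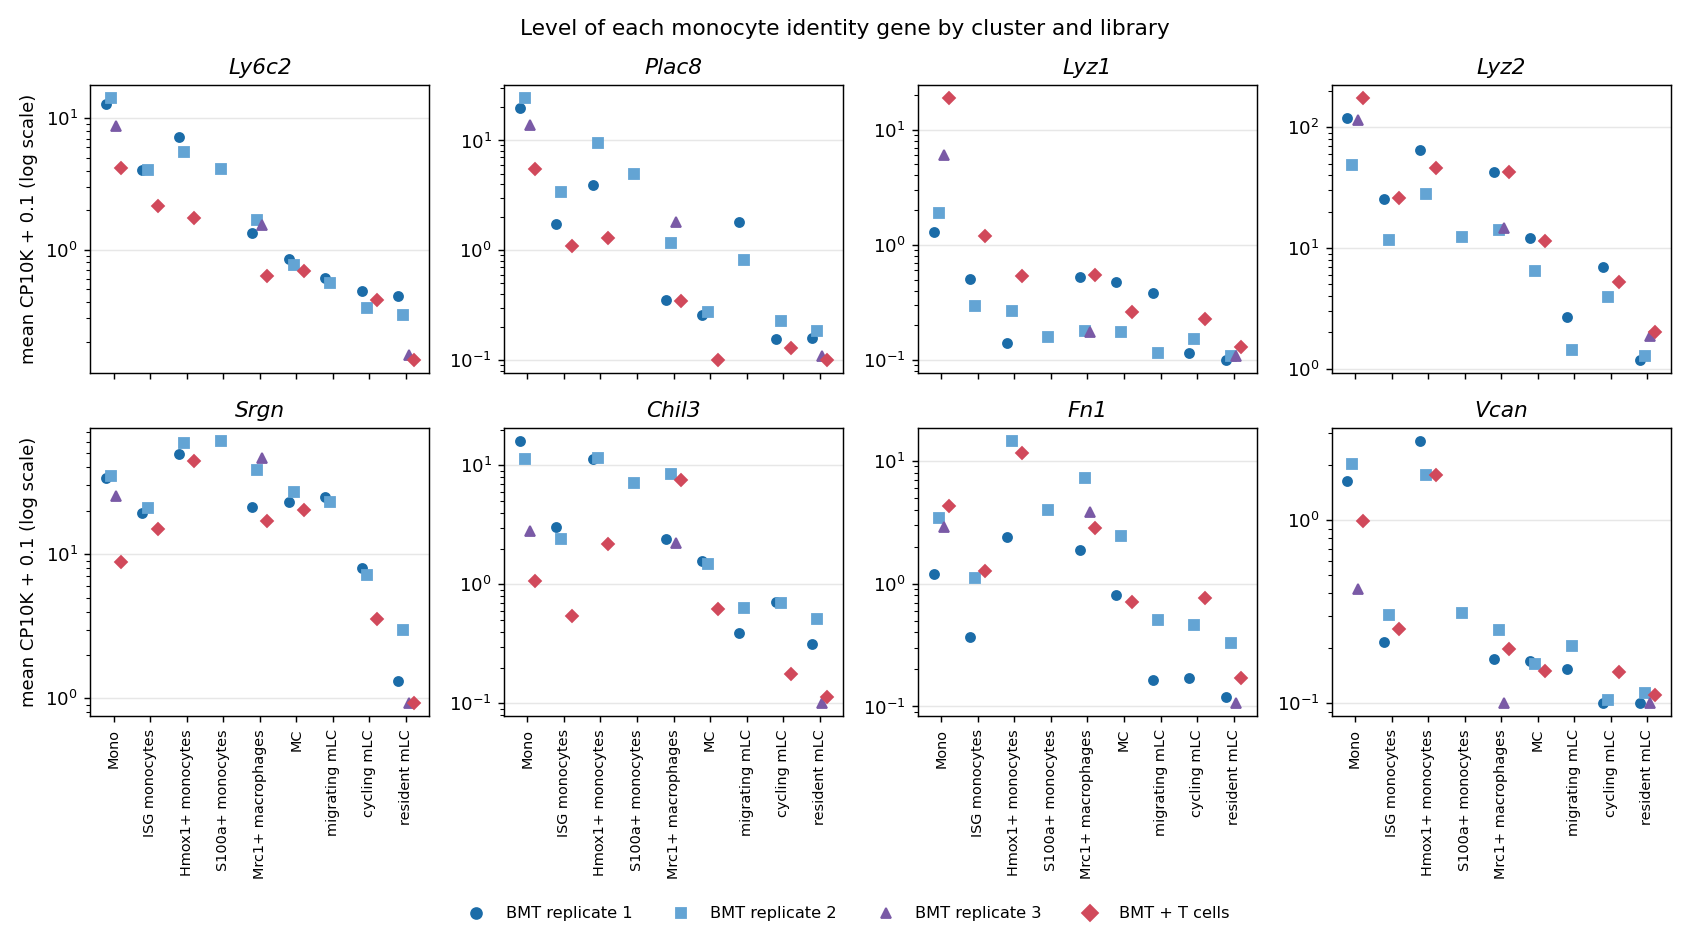
Mean level of each of the 8 genes (CP10K plus 0.1, log axis, 1 panel per gene with its own axis) in the 9 annotated clusters; each point is 1 library with at least 20 cells in that cluster, by colour and shape. Resident mLC are lowest or close to the lowest in every panel, while Srgn, Chil3, Fn1 and Vcan have clusters other than Mono at or near the top.

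In resident mLC, the end of the Langerhans-like path, all 8 genes were far below Mono. Ly6c2 was at 0.345, 0.219, 0.0585 and 0.0448 CP10K (BMT replicates 1 to 3, then BMT + T cells), which is 1.51 ± 0.87% of the Mono level of the same library (mean ± SD, n = 4 libraries). Plac8 retained 0.173 ± 0.170%, with 0 UMIs in the 320 resident mLC of the BMT + T cells library and 2 UMIs in the 105 cells of BMT replicate 1. Lyz1 retained 0.180 ± 0.179%. Lyz2 retained 1.49 ± 0.67%, Chil3 1.60 ± 1.52%, Fn1 2.62 ± 2.93% and Vcan 0.495 ± 0.612%. Srgn retained the most, 6.19 ± 3.15%, with a range from 3.33 to 9.46% that overlapped the ranges of Chil3 (up to 3.66%) and Fn1 (up to 6.89%).

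Lyz2 and Srgn were still found in many resident mLC. Lyz2 was in 46.7%, 40.8%, 54.9% and 49.4% of the cells of the 4 libraries, at median depths of 10082, 7343, 18027 and 12852.5 UMIs, and Srgn in 43.8%, 59.1%, 33.3% and 26.9%. At 2000 UMIs per cell these shares fell to between 14.9 and 18.6% for Lyz2 and between 10.5 and 30.8% for Srgn. For comparison, keratinocytes, which should lack both, had Lyz2 in 0.106% and 0.0386% of cells at median depths of 8895.5 and 8834 UMIs, but they were captured in other libraries, so free RNA in the donor libraries is not measured by them. Within the donor libraries the ratio of the 2 genes was not constant: there were 31.1 Srgn UMIs per 100 Lyz2 UMIs in Mono of BMT replicate 1, 188.4 in MC, 1065 in migrating mLC and 126.7 in resident mLC.

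Migrating mLC differed from resident mLC in which genes were lost. Srgn stood at 24.9 and 22.9 CP10K in migrating mLC of BMT replicates 1 and 2, the libraries with enough cells, against 1.22 and 2.89 CP10K in their resident mLC. Plac8 stood at 1.71 and 0.711 CP10K against 0.0576 and 0.0834 CP10K. Both genes therefore had a higher mean in migrating than in resident mLC in each library. The percent of Mono was 70.3 ± 6.4% for Srgn and 5.78 ± 4.03% for Plac8 (n = 2 libraries). Srgn was found in 92.3 to 95.6% of migrating mLC, but Plac8 in only 7.69 to 8.88%. The Plac8 mean, and its ratio to Ly6c2 given below, thus rest on a small share of these cells. In MC, by contrast, Plac8 was at 0.160, 0.175 and 0 CP10K, 0.510 ± 0.444% of Mono (n = 3), while Ly6c2 kept 8.32 ± 5.31% there. The Plac8 UMIs per 100 Ly6c2 UMIs were 153.2 and 169.0 in Mono of BMT replicates 1 and 2, 11.1 and 28.1 in MC, and 285.7 and 141.9 in migrating mLC. Relative to Ly6c2, Plac8 was thus low in MC in both libraries, and in migrating mLC it was above Mono in one library and below it in the other.

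In Mrc1+ macrophages the genes split. Ly6c2 kept 12.6 ± 3.0%, Plac8 5.69 ± 4.78%, Vcan 5.93 ± 4.68% and Lyz2 25.3 ± 9.5% of Mono (n = 4). Srgn was at 21.1, 38.0, 46.3 and 16.8 CP10K, higher than in Mono in 3 of the 4 libraries. Fn1 was at 1.76, 7.07, 3.71 and 2.72 CP10K, likewise higher than Mono in 3 libraries and lower in the BMT + T cells library. Chil3 was at 2.29, 8.43 and 2.13 CP10K in the BMT libraries, below Mono in each, and at 7.40 CP10K in the BMT + T cells library, where Mono held 0.975 CP10K. That last mean came from 106 Chil3 UMIs in 73 Mrc1+ macrophages, of which 15.1% had any, at a median of 11066 UMIs. Mono had 41 Chil3 UMIs in 63 cells there. The excess over Mono in that library thus rests on a small share of cells.

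Hmox1+ monocytes, named for heme oxygenase, were above Mono in all 3 libraries for Fn1 and Srgn, and far below it for Lyz1. Fn1 was at 2.31 and 14.3 CP10K in BMT replicates 1 and 2 and at 11.5 CP10K in the BMT + T cells library, 306 ± 113% of Mono (n = 3). Srgn was at 274 ± 201%, Vcan at 147 ± 54% and Chil3 at 130 ± 76% of Mono. For Vcan and Chil3 some libraries were above their Mono and some below, with Vcan at 86.1% in BMT replicate 2 and Chil3 at 70.4% in BMT replicate 1. The summed neutrophil markers were also higher there than in Mono in all 3 libraries, at 52.1 against 5.25 CP10K in BMT replicate 1, 9.98 against 5.62 CP10K in BMT replicate 2 and 8.93 against 1.41 CP10K in the BMT + T cells library, and their part was not tested. Lyz1 went in the other direction and was at 4.99 ± 3.68% of Mono there, with only 1 UMI in BMT replicate 1, while Lyz2 kept 45.8 ± 16.9%. In S100a+ monocytes of BMT replicate 2, Srgn reached 60.5 CP10K against 34.8 CP10K in Mono, and Vcan fell to 0.212 against 1.93 CP10K. Markers of neutrophils moved with that cluster: their summed level was 574.9 CP10K there against 5.62 CP10K in Mono of the same library, and all 8 measured neutrophil markers were at least 4-fold higher in it, so which cells carried the Srgn was not tested.

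**Figure D2:**
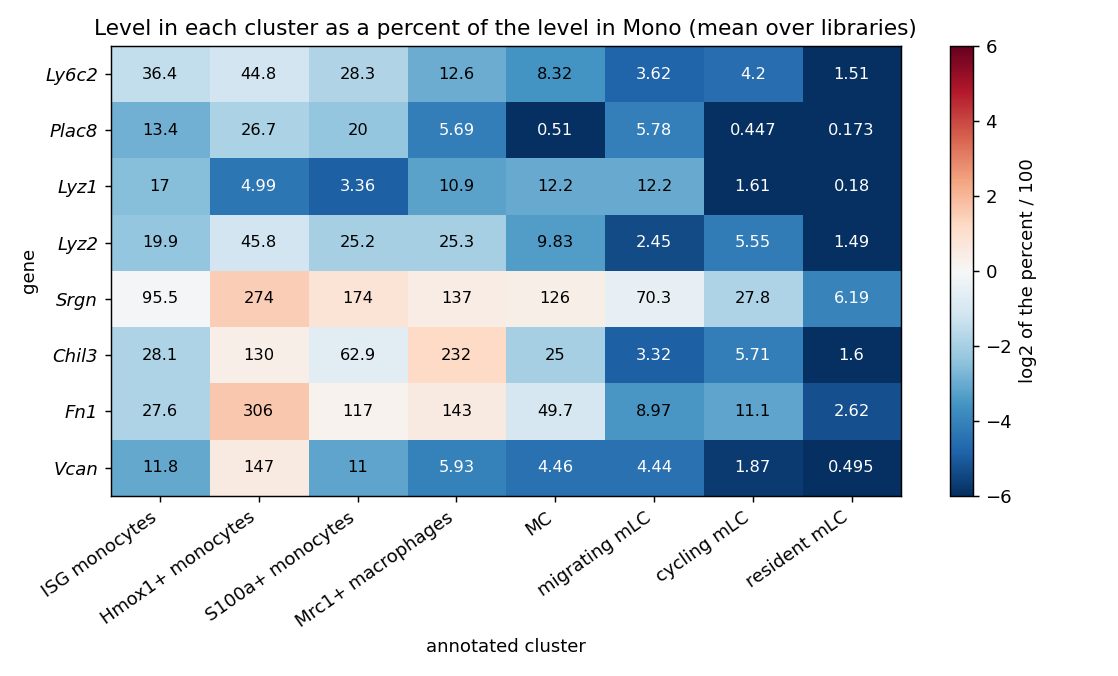
Level of each gene (rows) in each cluster (columns) as a percent of its level in Mono of the same library, averaged over the 1 to 4 libraries with at least 20 cells in both; colour is the log2 of the percent divided by 100. Every gene is far below Mono in resident mLC, from 0.173% for Plac8 to 6.19% for Srgn, while Fn1 reached 306% and Srgn 274% in Hmox1+ monocytes. The 232% of Chil3 in Mrc1+ macrophages rests on the BMT + T cells library, at 759%.

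A gene was counted as lost from a cluster when log2(CP10K + 0.1) was at least 2 below Mono, a 4-fold difference, in every library with both clusters. The same count over all 7267 genes is given beside it; since the genes were chosen for this contrast, nothing is read from the difference. In resident mLC 8 of 8 genes were lost, against 1.20% of all genes. In cycling mLC 7 of 8 were lost (0.592% of all genes), with Srgn as the exception. In migrating mLC 6 of 8 were lost (0.922%), without Srgn and Lyz1. In MC 4 of 8 were lost (0.220%), namely Ly6c2, Plac8, Lyz2 and Vcan. In Mrc1+ macrophages 3 of 8 were lost (0.110%), namely Ly6c2, Plac8 and Vcan. In S100a+ monocytes 3 of 8 were lost in the single library (0.0826%), namely Plac8, Lyz1 and Vcan. In ISG monocytes 2 of 8 were lost (0.0826%), Plac8 and Lyz2, and in Hmox1+ monocytes 1 of 8, Lyz1 (0.165%). Without the BMT + T cells library 4 were lost in ISG monocytes, and without BMT replicate 2 the count in Hmox1+ monocytes was 2. The counts rested on the pseudocount: with 1 in place of 0.1 they were 4 in resident mLC, 2 in cycling mLC, 2 in MC, 1 in Mrc1+ macrophages, 1 in S100a+ monocytes and 0 in ISG and Hmox1+ monocytes. The median difference from Mono over the 8 genes was -4.87 on the log2 scale in resident mLC, against 0.14 over all genes, and -0.48 in Hmox1+ monocytes, against -0.14.

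Individual cells showed the same gradation. Each cell was thinned to 2000 UMIs and the genes with at least 1 UMI were counted. Mono cells had a median of 4, 4, 3 and 3 of the 8 genes in the 4 libraries, and no Mono cell of any library had 0. Resident mLC had a median of 0 genes in all 4 libraries, and 65.1%, 52.2%, 74.5% and 76.4% of cells had none. Between them, MC had a median of 2 genes in 3 libraries and migrating mLC a median of 1 in 2 libraries. Hmox1+ monocytes came closest to Mono, with medians of 4, 4 and 3.

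**Figure D3:**
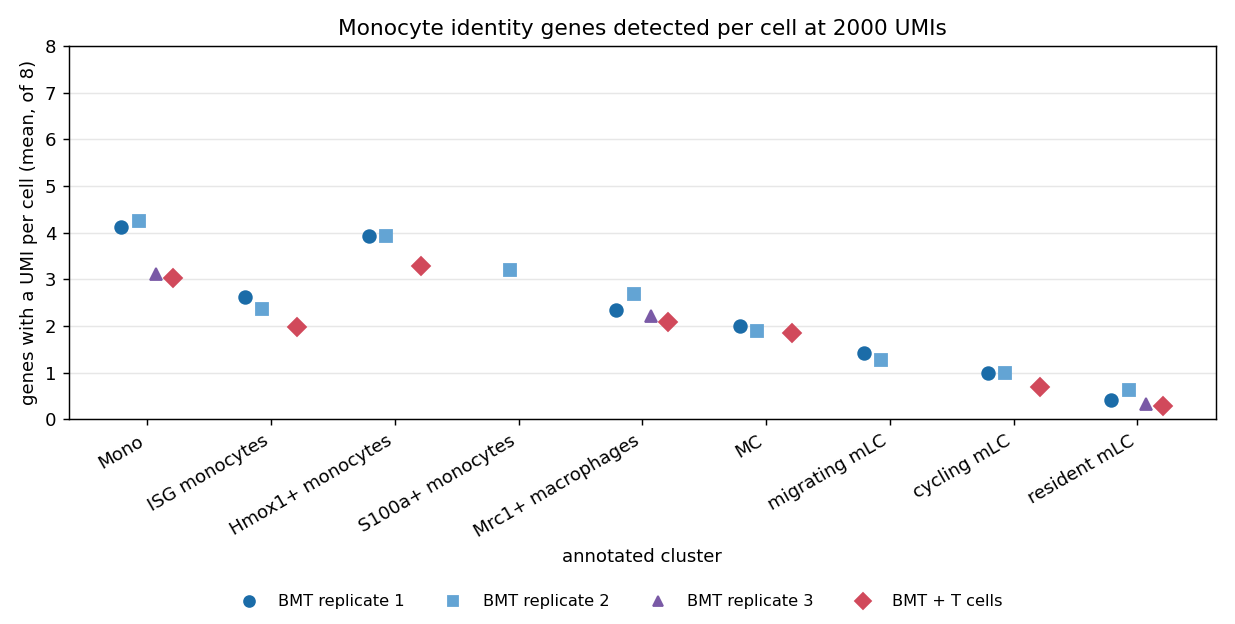
Mean number of the 8 genes with at least 1 UMI per cell after thinning to 2000 UMIs, by annotated cluster; each point is 1 library with at least 20 cells of that depth. Means run from 3.04 to 4.24 in Mono and from 0.291 to 0.626 in resident mLC.

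Latent time is the authors' ordering of donor cells from RNA velocity, from 0 to 1. Mono was not its starting cluster: the median latent time was 0.170 in ISG monocytes, 0.218 in MC, 0.246 in Mono and 0.262 in Mrc1+ macrophages, and then 0.331 in Hmox1+ and in S100a+ monocytes, 0.412 in migrating, 0.472 in cycling and 0.538 in resident mLC. The genes were therefore followed in bins of 0.1 over Mono and ISG monocytes together with the clusters of 1 fate, and the latent time at which a gene first fell to 50% of its level in the first bin, called its fall time here, was interpolated. Latent time was computed from the same cells, so these times are descriptions.

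In the pooled bins towards resident mLC (with MC), Srgn had the earliest fall time. It was 0.387, 0.386, 0.323 and 0.263 in the 4 libraries, and in each library it came before that of every other gene that reached 50%. Measured from the highest bin instead, Lyz1 came before Srgn in BMT replicate 2, at 0.317 against 0.373, with Srgn still first in the other libraries. The clusters gave another order: in MC, Srgn stood at 126 ± 91% of Mono and Plac8 at 0.510 ± 0.444% (n = 3). The bins hold Mono cells along with MC and resident mLC, so the fall times do not give the order of loss between clusters. Lyz1 followed at 0.464 ± 0.022 (n = 4), Chil3 at 0.479 ± 0.096 (n = 4) and Vcan at 0.498 ± 0.018 (n = 2). Ly6c2 fell to 50% at 0.521 ± 0.065, Lyz2 at 0.536 ± 0.064 and Plac8 at 0.553 ± 0.066 (n = 4 each), and Fn1 at 0.520 ± 0.081 (n = 3). Plac8 was the last gene to reach 50% in BMT replicates 1 and 2 and in the BMT + T cells library. Lyz1 came before Ly6c2, Lyz2 and Plac8 in all 4 libraries, and Ly6c2 before Plac8. The times of Chil3, Fn1, Vcan and Lyz2 changed places with their neighbours between libraries, so no order is given among them. BMT replicate 3 filled only 3 bins, with none between 0.4 and 0.6, so its fall times were interpolated across that gap.

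The level in the pooled bins did not decline steadily. Those bins mix clusters of different level: in BMT replicate 1 Plac8 stood at 0.160 CP10K in MC and at 0.0576 CP10K in resident mLC. Mono cells of that library at latent time 0.3 or later had it at 64.5 CP10K. No rise within MC or resident mLC is therefore read from the bins. In BMT replicate 1 Plac8 went from 2.03 CP10K in the first bin to 19.1 CP10K at 0.4 to 0.5, stood at 16.9 CP10K in the next bin and at 0.641 CP10K in the bin after it. Lyz2 in the same library stood at 32.5, 81.3, 58.7 and 3.57 CP10K in the same bins. In the BMT + T cells library Lyz2 went from 36.9 CP10K at 0.1 to 0.2 to 91.4 CP10K at 0.3 to 0.4, and then to 32.1 and 3.28 CP10K in the next bins. In BMT replicate 2 Lyz2 was nearly level, between 11.99 and 16.8 CP10K up to 0.5, and then 2.03 CP10K. The fall of Srgn came earlier, from 24.5 CP10K at 0.2 to 0.3 to 15.0 and 5.30 CP10K in the next bins of BMT replicate 1.

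**Figure D4:**
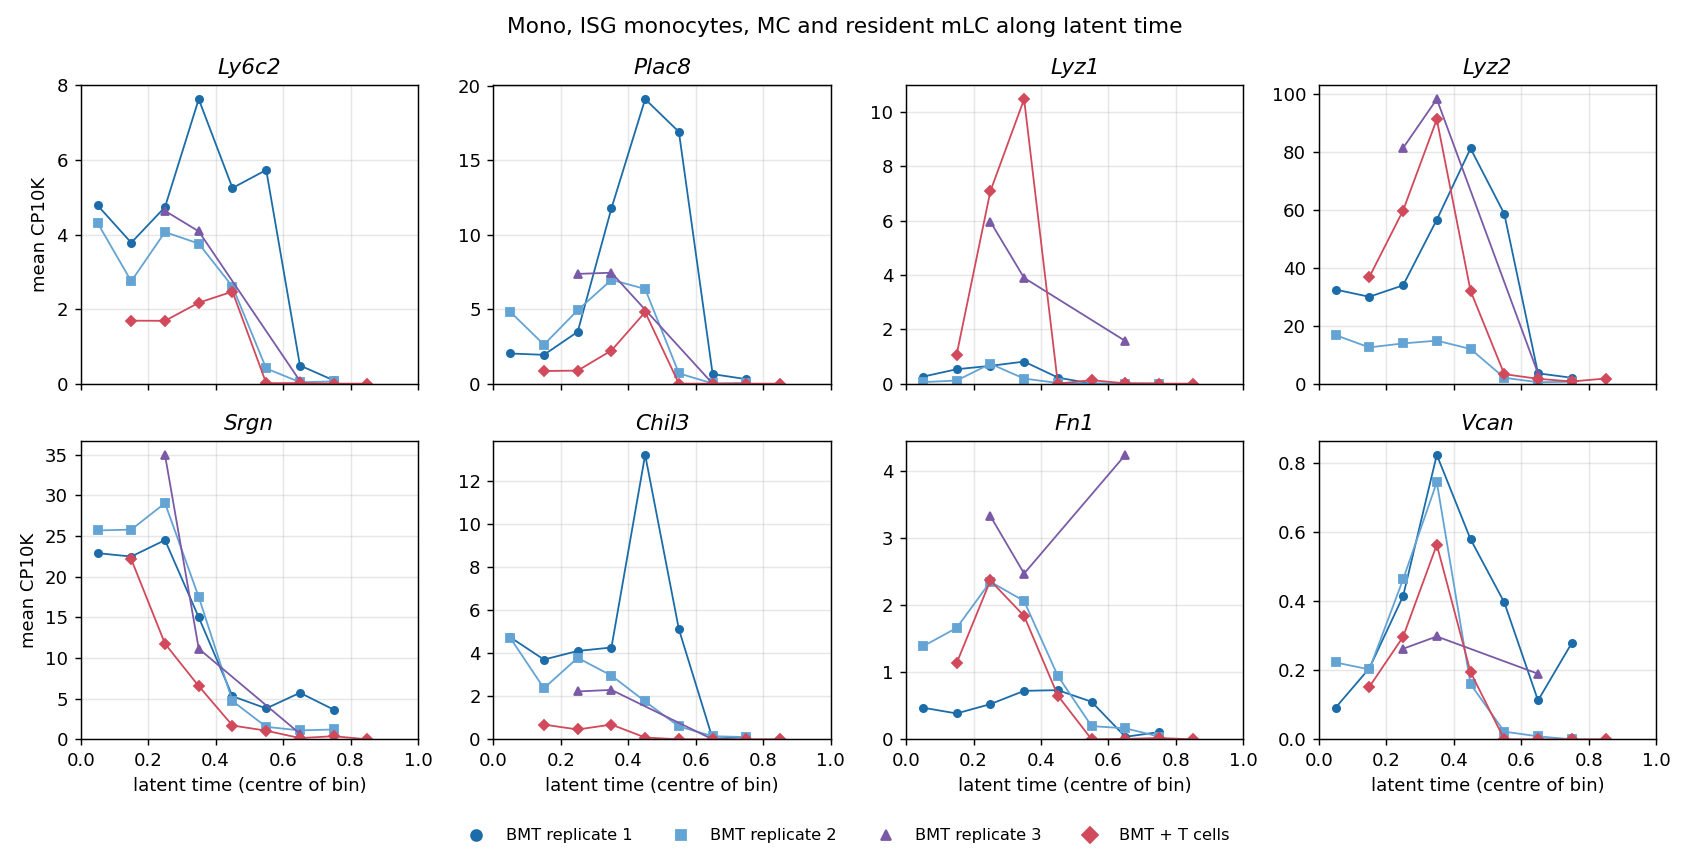
Mean level (CP10K, linear axis from 0, 1 panel per gene) in bins of 0.1 of latent time over Mono, ISG monocytes, MC and resident mLC; each line is 1 library and each point a bin of at least 20 cells. Srgn falls from latent time 0.25 onwards in the BMT libraries, whereas Plac8 in BMT replicate 1 reaches 19.1 CP10K at 0.45 before it falls. Each bin pools the cells of these clusters, Mono included.

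Bins made in the same way towards the other fates held the same Mono and ISG monocytes, and some libraries had almost no cells of the fate itself (11 S100a+ monocytes in BMT replicate 1, 2 migrating mLC in BMT replicate 3). In BMT replicate 1 Plac8 had nearly the same fall time whichever fate was added, 0.648 with resident mLC, 0.645 with migrating mLC, 0.647 with Mrc1+ macrophages, 0.645 with Hmox1+ monocytes and 0.647 with S100a+ monocytes. The fall times therefore describe the pooled cells of each path, the shared monocytes included, and the fates are not compared by them. Of 32 gene and library pairs 29 reached 50% in the path with resident mLC, 16 with migrating mLC, 11 with S100a+ monocytes, and 9 each with Mrc1+ macrophages and with Hmox1+ monocytes. Without BMT replicate 1 these were 22, 9, 5, 2 and 2 of 24, and without BMT replicate 2 the count with migrating mLC was also 9.

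Within Mono itself several genes were higher at later latent time. Mono cells at 0.3 or later (42, 114, 43 and 39 cells in the 4 libraries) were compared with Mono cells below 0.3 (204, 433, 39 and 24 cells). Plac8 was at 64.5 against 10.6 CP10K in BMT replicate 1, 51.8 against 17.0 in BMT replicate 2, 17.7 against 9.45 in BMT replicate 3 and 7.998 against 1.12 in the BMT + T cells library. Ly6c2 was at 24.1 against 10.4, 23.5 against 11.7, 12.5 against 4.49 and 5.45 against 1.84 CP10K. The later cells were thus higher in all 4 libraries for both genes, and the same held for Lyz2, Chil3 and Vcan. Srgn was lower in the later cells in 3 of the 4 libraries, most in BMT replicate 3, at 10.4 against 41.4 CP10K. The later cells had fewer UMIs in all 4 libraries, for example a median of 8398.5 against 11214 in BMT replicate 1, and other markers moved with the split. The summed patrolling monocyte markers were higher in the later cells, at 5.32 against 3.54, 8.76 against 4.004, 14.97 against 1.77 and 6.09 against 2.37 CP10K, and the summed Langerhans cell markers were lower, at 0.194 against 2.999, 2.46 against 4.93, 0.448 against 4.19 and 0.548 against 4.64 CP10K. The part of depth and of these markers was not tested.

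Mono cells with Lyz1 were lower in Plac8. Those with at least 1 Lyz1 UMI (28, 63, 34 and 38 cells) had Plac8 at 15.3, 6.98, 4.82 and 1.30 CP10K, and those without it had 20.4, 26.5, 20.1 and 11.6 CP10K. Chil3 was at 8.40, 2.76, 1.65 and 0.213 CP10K in cells with Lyz1 and at 16.8, 12.3, 3.45 and 2.13 CP10K in those without. Cells with Lyz1 were therefore lower in all 4 libraries for Plac8 and Chil3, and also for Ly6c2 (by 0.06 on the log2 scale in BMT replicate 3) and Srgn. The macrophage markers (Mrc1, Arg1, C1qa, C1qb, C1qc, Ms4a7, Apoe, Ccl24 and Pf4) moved the other way, with a summed level of 50.7, 100.8, 168.3 and 138.4 CP10K in cells with Lyz1 and 31.1, 60.6, 94.5 and 85.5 CP10K without. Cells with Lyz1 were also deeper, at medians of 12524, 6918, 14778.5 and 12008 UMIs against 10787.5, 5260.5, 8575 and 11142, and a deeper cell is more likely to show a UMI of any gene.

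**Figure D5:**
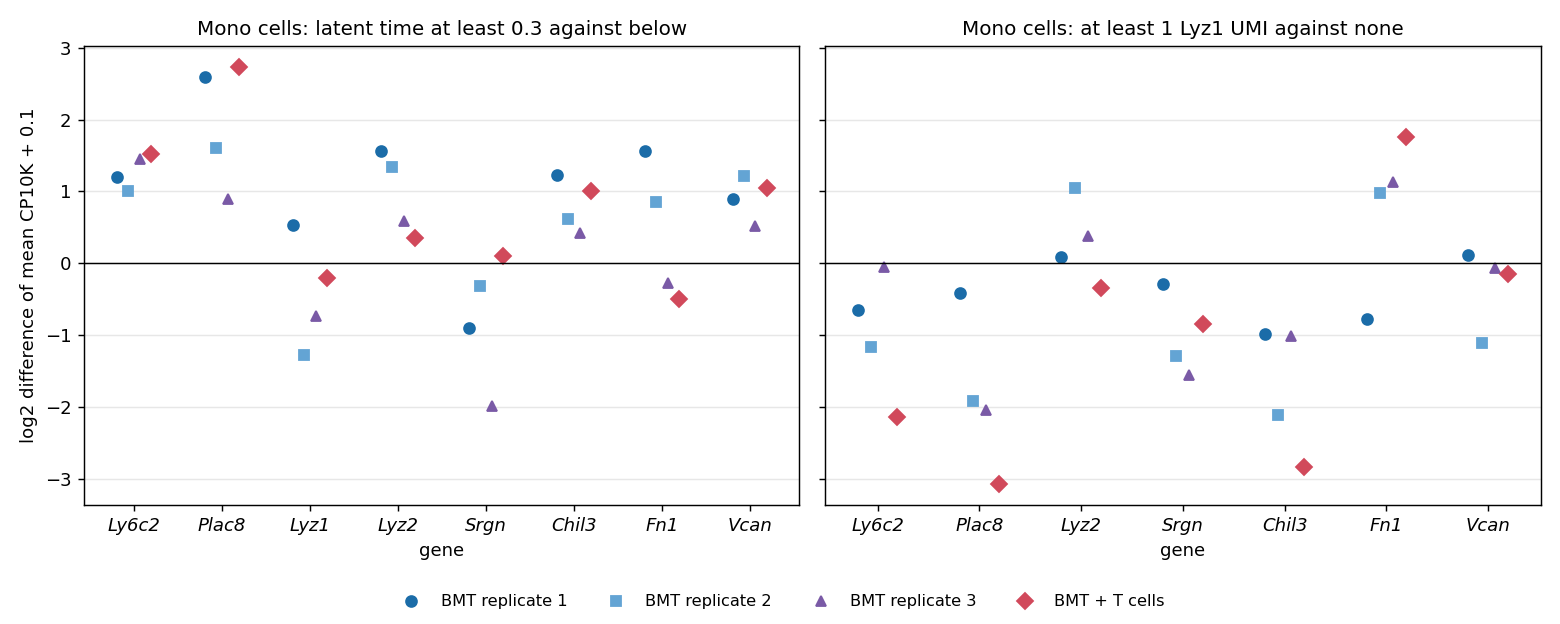
Difference in mean level within Mono, log2(CP10K + 0.1), between cells at latent time 0.3 or later and earlier cells (left) and between cells with and without a Lyz1 UMI (right); each point is 1 library. Plac8 and Ly6c2 lie above 0 in all 4 libraries on the left and below 0 in all 4 on the right.

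Across Mono cells thinned to 2000 UMIs, Plac8 and Ly6c2 had Spearman correlations of 0.40, 0.51, 0.60 and 0.78 (BMT replicates 1 to 3, then BMT + T cells, over 240, 527, 79 and 57 cells). Lyz1 had negative coefficients with Plac8, of -0.02, -0.31, -0.32 and -0.34, and Srgn with Lyz2 of -0.25, -0.37 and -0.30 in the BMT libraries and 0.07 in the BMT + T cells library. These describe cells of 1 library, which share their capture and whose counts add up to the same total, and the coefficients nearest 0 are no finding.

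The labels were compared with limma on all 7267 genes, first as the mean over Mono, Mrc1+ macrophages and resident mLC, the clusters with at least 20 cells in all 4 libraries, and then within Mono. The 1 library labelled BMT + T cells was assumed to vary like the 3 labelled BMT. Over clusters 0 of 8 genes were called at an absolute log2 difference above 1 and an adjusted p under 0.05, and 0% of all genes (0 of 7267; 358 had an unadjusted p under 0.05, and limma voom on summed UMIs also called 0). The largest differences over clusters were those of Lyz1, at 1.46, and of Ly6c2 and Plac8, at -1.24 each on the log2 scale (adjusted p = 0.93 for each, limma). Within Mono 0 of 8 were called as well, against 0.0413% of all genes, which were 3 genes outside the set, Mucl1, AA467197 and Ccl24, named here after their values were seen. Limma voom called 0 genes within Mono, and 377 had an unadjusted p under 0.05.

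The differences within Mono, where the macrophage markers also differed between the libraries as given above, were large but not beyond the spread between libraries by this test. Lyz1 was 2.95 higher under the BMT + T cells label on the log2(CP10K + 0.1) scale (SE 0.77, adjusted p = 0.39, limma). Chil3 was lower, at -2.89 (SE 0.87, adjusted p = 0.40), Srgn at -1.81 (SE 0.38, adjusted p = 0.35), Plac8 at -1.78 (SE 0.42, adjusted p = 0.39) and Ly6c2 at -1.49 (SE 0.40, adjusted p = 0.39). For each of these genes, and for Lyz2 and Fn1, the BMT + T cells library lay outside the range of the BMT libraries. Of the 8, 5 genes had an unadjusted p under 0.05, against 10.8% of all genes. Lyz2 differed by 0.99 (SE 0.57), Fn1 by 0.90 (SE 0.58) and Vcan by -0.18 (SE 0.81), each with an adjusted p above 0.5 (0.55, 0.59 and 0.95, limma).

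BMT replicate 3 decided these calls. Without it 6 of 8 genes were called within Mono (Ly6c2, Plac8, Lyz1, Srgn, Chil3 and Fn1), and 866 of all genes instead of 3. Over clusters 5 of 8 were called without it, and 195 of all genes instead of 0. Fits without BMT replicate 3 take the spread from BMT replicates 1 and 2 alone, and in them the label and the form of library name cannot be told apart. BMT replicate 3 shares its form of library name with the BMT + T cells library. Between these 2 libraries alone, Lyz1 in Mono was 1.66 higher on the log2 scale under the BMT + T cells label and Plac8 was at -1.34, against 3.32 and -2.15 when set against BMT replicate 2, so that the name form and the label cannot be told apart fully here. With that pair as a term in the fit, Plac8, Lyz1, Srgn, Chil3 and Vcan passed the thresholds within Mono, with 294 genes in all, and Vcan then pointed upwards (1.24, adjusted p = 0.025, limma). That fit rests on the difference between the last pair of libraries and takes the spread from BMT replicates 1 and 2.

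Other monocyte genes were followed as a list fixed for this work with earlier results of these data known. Of 23 classical monocyte markers 19 passed the filter. Of these 6 were at least 4-fold below Mono in resident mLC in every library (1.20% of all genes), 5 in cycling (0.592%) and 5 in migrating mLC (0.922%). In MC there were 4 (0.220%), in Mrc1+ macrophages 2 (0.110%) and in ISG monocytes 1 (0.0826%). Hmox1+ (0.165%) and S100a+ monocytes (0.0826%) had 0. The rule had to hold in 4 libraries for resident mLC, but in 2 for migrating mLC and in 1 for S100a+ monocytes. The genes lost from the most clusters were Ifitm6, an interferon-induced transmembrane gene of monocytes (6 clusters), Hp, encoding haptoglobin (5), and Clec4e, encoding the receptor Mincle (4). Ifitm6 stood at 0.90 ± 0.38 CP10K in Mono (n = 4) and at 0.00970 ± 0.0144 CP10K in ISG monocytes (n = 3), and at 2.34 CP10K in S100a+ monocytes. Hp stood at 1.47 ± 0.35 CP10K in Mono and at 0.00166 ± 0.00294 CP10K in resident mLC. Clec4e, like Fn1, was higher in Hmox1+ monocytes, at 10.0 ± 2.3 CP10K, than in Mono, at 2.34 ± 1.23 CP10K.

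Of 7 monocyte transcription factors that passed the filter, 0 were lost in resident mLC by the same rule (1.20% of all genes). Their median difference from Mono there was still -1.97 on the log2 scale, against 0.14 over all genes. Klf2 alone was lost in ISG monocytes (0.0826% of all genes) and in MC (0.220%). Klf2, a factor of quiescent circulating cells, stood at 1.58 ± 1.01 CP10K in Mono and 0.09996 ± 0.0353 CP10K in ISG monocytes. In resident mLC it stood at 0.129 ± 0.042 CP10K. It was not counted as lost there because the rule has to hold in every library, and some fell short. Of 10 receptors for fibronectin and versican that passed, 1 was lost in migrating mLC (0.922% of all genes), Tlr2, a receptor of versican. In resident mLC 0 were lost (1.20%), with a median difference from Mono of -1.03 on the log2 scale.

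The gene whose level over the 27 library and cluster units was most like the mean of the 8 was Ly6c2 itself, with a Pearson coefficient of 0.943. Next came Irak3 (0.940), Tnfrsf1b (0.931), Plekho2 (0.929), Nupr1 (0.924), Cndp2 (0.921), Gda (0.914), Rab5c (0.911), AB124611 (0.911) and Ralgds (0.910). Lyz2 ranked 17 of 7267 and Plac8 19, whereas Srgn ranked 132 and Lyz1 441. Units of 1 library share its depth and capture, so these coefficients are descriptions.

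Host CD11b+MHCII+ cells, in a single library of 781 cells at a median of 4376 UMIs, had little of the 5 listed genes. Ly6c2 was in 0.384% of cells (exact 95% interval 0.0793 to 1.12%), Lyz2 in 1.15% (0.528 to 2.18%), Vcan in 0.512% (0.140 to 1.31%) and Fn1 in 6.79% (5.12 to 8.78%). Srgn was in 9.48% of cells, and 149 of its 358 UMIs came from the 23 cells of host cluster 6, all of which had it (9.46 CP10K). All 23 also had Cd3e and Nkg7, genes of T and NK cells. In the 2 keratinocyte libraries Lyz1 and Chil3 were at 0 of 2836 and 0 of 2590 cells, which, at 3 counts, allows up to 0.106% and 0.116% of cells with a captured UMI and sets no limit on cells that express the gene without one, and Plac8 was in 1 cell of each. Fn1 was found in 22 of 278 and 26 of 259 cells of the Follicular cluster. Host and keratinocyte values have no replicate and no test.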

How the data were processed

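The members and gene lists were chosen with earlier results of these data known. Cells were captured with a 10x 5′ kit, and reads were counted by the authors with kallisto and bustools against GRCm38 and processed in Seurat, per the labels and methods; aligner versions are not given in the sources used here. Doublets had been removed by the authors with DoubletFinder and none were sought again. The deposited expression values are natural log values, ln(1 + UMIs per 10000), with the authors' cluster names, latent time (a fraction from 0 to 1) and percent mitochondrial reads in deposited cell tables. From each cell's deposited total, 100% of non-zero donor values came out as whole UMIs within 0.001, and these UMIs were used for sums and shares.

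The level of a gene was its CP10K averaged over the cells of a library and cluster (20 cells or more). The 7267 genes whose average over these units reached 0.1 CP10K entered limma 3.58.1 (R 4.3.3) on log2(CP10K + 0.1), a scale that understates changes of low genes, with Benjamini-Hochberg adjustment over all of them. A call needed an absolute log2 difference above 1 and an adjusted p under 0.05. Other values were computed in Python 3.11.15 with numpy 2.4.6, pandas 2.3.3 and scipy 1.17.1. Shares have exact Clopper-Pearson 95% intervals, which cover counting error only. The members were named, with, from each other list, the genes at least 4-fold below Mono in the most clusters, and the genes most like the mean of the members. Alternatives changed the pseudocount, filter, averaging, depth, bin width, minimum cells and libraries.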

Additional observations from a re-analysis of the deposited data

How the results depend on the processing

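The 4-fold counts and the levels kept depended most on the pseudocount. With a pseudocount of 1 the genes lost were 0 in ISG, 0 in Hmox1+ and 1 in S100a+ monocytes, 1 in Mrc1+ macrophages, 2 in MC, 2 in cycling and 4 in resident mLC, since low levels are then drawn together. Hmox1+ monocytes, where the genes ran from 4.99% of Mono for Lyz1 to 306% for Fn1, are left out of the medians that follow. The median percent of Mono kept by the 8 genes was 23.7 in ISG, 26.8 in S100a+ monocytes, 18.9 in Mrc1+ macrophages, 11.02 in MC, and 5.11, 4.87 and 1.497 in migrating, cycling and resident mLC. With a pseudocount of 1 on both levels it was 42.0, 39.7, 42.8, 36.4, 24.9, 27.9 and 18.3 in the same order. With a pseudocount of 0.01 it was 26.79 in S100a+ monocytes. From summed UMIs it was 22.3 in ISG, 30.05 in S100a+ monocytes, 25.4 in Mrc1+ macrophages, 14.9 in MC and 7.29 in cycling mLC. In cells thinned to 2000 UMIs it was 21.6 in ISG, 27.9 in S100a+ monocytes and 2.08 in cycling mLC. Leaving out 1 library at a time gave 22.6 to 24.3 in ISG monocytes, 9.67 to 13.2 in MC and 4.02 to 5.11 in migrating mLC, with 2 to 4 genes lost in ISG and 1 to 2 in Hmox1+ monocytes.

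Bins of 0.05 gave 14 falls to 50% towards Mrc1+ macrophages and a median fall time towards resident mLC of 0.416, against 0.509. With at least 50 cells a bin the falls were 7 towards migrating mLC, 0 towards Hmox1+ and 3 towards S100a+ monocytes, and in thinned cells 3 and 7 towards the latter pair. Measured from the highest bin they were 14 towards Mrc1+ macrophages and 17 towards S100a+ monocytes. Leaving out 1 library gave 21 to 23 falls towards resident mLC, 9 to 15 towards migrating mLC, 2 to 9 towards Mrc1+ macrophages, 2 to 9 towards Hmox1+ and 5 to 10 towards S100a+ monocytes.

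The label comparison called 0 to 195 genes over clusters and 0 to 866 within Mono when 1 library was left out, and 123 and 294 with the pair of library names as a term. Within Mono it called 0 with a pseudocount of 1, 0 without the filter, 0 on mean log values and 0 with limma voom. Over clusters the difference changed sign for Chil3 with the pair term (0.18), for Fn1 on mean log values (-0.057), with voom (-0.57) and with 1 library left out (-0.20 to 0.62), and for Vcan with a pseudocount of 1 (-0.046), on mean log values (-0.048), with voom (-0.33), with at least 50 cells (-0.043) and with 1 library left out (-0.30 to 0.33). Within Mono it changed sign for Vcan without BMT replicate 1 (0.10) or 2 (0.25), with a range of -0.88 to 0.25 over the libraries left out, and with the pair term (1.24). The cause of these changes was not tested. No paired analysis was possible by replicate number because the 2 labels share fewer than 2 of them, and the pair term above blocks on the form of the library names instead. The depth and cells of BMT replicate 3, the smallest donor library, limit every comparison that needs it.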
